A study of Mus musculus with 12 samples.

Results

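Oxidative phosphorylation genes encode the mitochondrial machinery that turns electrons from nutrients into ATP. Complexes I and II pass electrons to ubiquinone, complex III passes them to cytochrome c, complex IV reduces oxygen, and complex V uses the proton gradient built on the way to make ATP. Nearly all of their subunits are encoded in the nucleus, and dedicated assembly factors build the complexes. In airway epithelium, ciliated cells are known as rich in mitochondria, which gather below the beating cilia.

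The genes were chosen by symbol: those whose platform symbol starts with Ndufa, Ndufb, Ndufc, Ndufs, Ndufv, Sdha to Sdhd, Uqcr, Cox4 to Cox8 or Atp5, and Cycs and Cyc1. The platform names 93 such genes, and 76 of them had a probe called detected (p-value under 0.01) by 3 or more of the 12 arrays, among 9381 genes that passed in all. The 76 comprised 29 subunits of complex I (5 core and 24 accessory), 3 of complex II, 7 of complex III, 11 of complex IV, 14 of complex V and cytochrome c. The prefixes also caught 10 assembly factors of complexes I and II and the pseudogene Ndufs5-ps. For the 17 genes that did not pass, the best probe was detected on 0 to 2 arrays. They were Atp5k, Atp5md, Cox4i2, Cox6a2, Cox7b, Cox7b2, Cox8b, Cox8c, Ndufab1, Ndufaf6, Ndufb11, Ndufb2, Ndufb4, Ndufs1, Sdha, Uqcrfs1 and Uqcrq. Several of these encode obligatory subunits, such as the flavoprotein of complex II (Sdha) and the Rieske protein of complex III (Uqcrfs1), so a missing signal says only that the probe was not above background.

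Primary tracheal epithelial cells of male C57BL/6J mice were grown on membranes at an air-liquid interface (ALI), where basal cells give rise to ciliated and secretory cells. All cultures were transduced with a lentivirus, which carried an shRNA against Myb, a transcription factor gene, or a scrambled shRNA. Total RNA was taken at ALI day 3 or day 9, and the 4 groups (day 3 scrambled, day 3 Myb shRNA, day 9 scrambled, day 9 Myb shRNA) had 3 biological replicates each on Illumina bead arrays. The labels do not say whether untransduced cells were removed. Levels are log2 normalised intensities, differences are on the log2 scale with their SE, and p-values are from limma, adjusted over all 9381 genes with a threshold of 0.05. In bulk RNA, fewer cells of a type and less RNA per cell cannot be told apart.

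Each array detected 13247 to 15100 probes, and precision is limited by having 3 arrays per group. Myb itself could not check the labels: of its 4 probes, 3 were detected on no array and 1 on 1 array. Of 20 ciliated cell markers listed, 17 were measured, with Spag6 and Hydin detected on no array. Their summed linear level was 14201 to 23489 on the day 3 scrambled arrays, 2396 to 2621 with Myb shRNA at day 3, 39008 to 51142 in day 9 scrambled cells and 12506 to 20691 with Myb shRNA at day 9. With Myb shRNA 13 of the 17 fell at day 3 and 15 at day 9. Among pan-epithelial markers Epcam was detected on no array and the other 6 were measured. Basal cell markers rose with Myb shRNA (7 of 13 at day 3 and 5 at day 9), while 5 of 10 club and goblet cell markers fell and 1 rose at day 3, and 4 fell at day 9. Of 10 leukocyte markers 4 were measured and 5, Ptprc among them, were detected on no array. With Myb shRNA 3 of the 4 fell at day 3 (Lyz2 by 1.8, Cd68 by 0.60 and Cd14 by 0.29) and Lyz2 fell at day 9 by 1.31. At day 9, 2 of the 4 lay above 0 with groups that did not overlap, Csf1r the highest (0.32), though neither was called. The summed level of the 4 was 9623 to 14653 in day 3 scrambled cells against 4858 to 6103 with Myb shRNA, and 14115 to 15892 against 8085 to 8979 at day 9. Of 11 fibroblast and smooth muscle markers 9, Col1a1 among them, were detected on no array. The other 2, Acta2 and Dcn, gave no call with Myb shRNA, and Acta2 fell by 3.32 between days in scrambled cells. All 3 arrays of a group correlated at 0.971 or higher across genes.

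The promoters below are those of Cox6b2, the gene with the largest difference among the 76, of its paralogue Cox6b1, which did not pass the threshold in any comparison, and of Sdhaf4, which passed it at both days. Each run is 250 bases before to 50 bases after the start of the gene, read 5′ to 3′ on the gene's strand from RefSeq (GRCm38.p6). The Cox6b2 run is chr7:4753045-4753344, the Cox6b1 run chr7:30626065-30626364 and the Sdhaf4 run chr1:24005591-24005890, all on the minus strand. Capitals mark matches to the Myb motif (TAACNG or CAACNG, either strand) and to the motif of nuclear respiratory factor 1, Nrf1 (its GC-rich palindrome, either strand).
Cox6b2: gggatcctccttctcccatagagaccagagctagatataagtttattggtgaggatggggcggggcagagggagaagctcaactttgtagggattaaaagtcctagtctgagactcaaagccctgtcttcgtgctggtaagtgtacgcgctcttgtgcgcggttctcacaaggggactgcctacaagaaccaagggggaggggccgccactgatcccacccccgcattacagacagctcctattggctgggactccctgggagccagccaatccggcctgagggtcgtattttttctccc
Cox6b1: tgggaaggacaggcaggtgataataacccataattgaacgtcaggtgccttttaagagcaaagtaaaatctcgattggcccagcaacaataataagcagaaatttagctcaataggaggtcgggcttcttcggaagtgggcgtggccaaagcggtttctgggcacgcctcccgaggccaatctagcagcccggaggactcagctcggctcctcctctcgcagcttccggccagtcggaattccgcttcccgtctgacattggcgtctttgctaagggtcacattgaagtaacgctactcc
Sdhaf4: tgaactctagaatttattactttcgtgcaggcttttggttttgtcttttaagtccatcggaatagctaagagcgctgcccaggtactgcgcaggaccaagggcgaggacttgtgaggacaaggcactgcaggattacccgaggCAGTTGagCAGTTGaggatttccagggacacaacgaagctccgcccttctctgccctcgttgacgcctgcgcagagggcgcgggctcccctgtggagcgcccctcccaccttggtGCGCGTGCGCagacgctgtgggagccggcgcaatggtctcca
The Sdhaf4 run held 2 matches to the Myb motif and 1 to the Nrf1 motif, and neither motif matched in the Cox6b2 or Cox6b1 runs. Both Cox6b runs held 3 CCAAT letters on either strand, and the Cox6b1 run held 1 match to the GABP motif (CCGGAAG). Promoters were found for 65 of the 76 genes, and 34 of these (52.3%) held a Myb match against 53.1% of 27025 mouse promoters of the same length. The motifs of the respiratory factors, known as regulators of respiratory chain genes, were more frequent: 17 of the 65 (26.2%) held an Nrf1 match against 5.19% of all promoters, and 19 (29.2%) held a GABP match against 9.93%. CCAAT was found in 40.0% of the 65 against 41.1% of all. A match of letters is a description of the sequence and not a binding site.

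Most of the 76 genes were above background throughout. Of these, 71 (93.4%) were detected on all 12 arrays, against 79.0% of all genes tested, and the median SD within a group was 0.17 against 0.20. They were also brighter, with a median level of 11.53 against 7.95 over all genes. The genes not detected on every array were Sdhd (4 arrays), Cox6b2 (8), Uqcrb (10), Atp5e (11) and Ndufb9 (11).

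**Figure D1:**
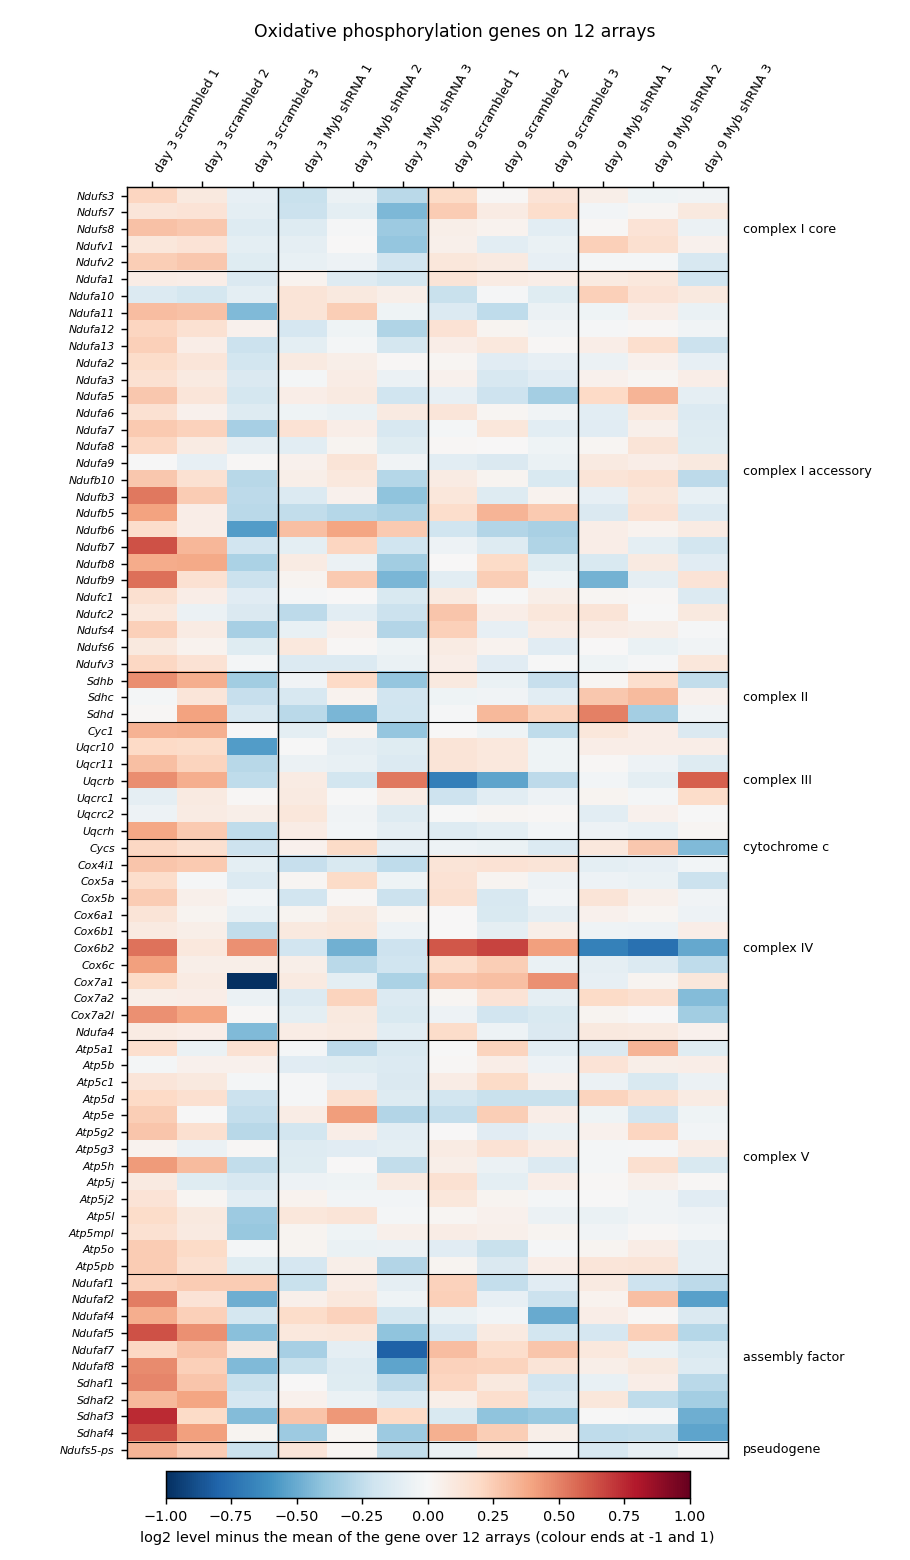
Log2 level of each of the 76 genes (rows, by role) on each of the 12 arrays (columns), as the difference from that gene's mean over the 12 arrays, with the colour scale ending at -1 and 1. The rows of most genes stay pale, Cox6b2 is red in both scrambled groups and blue with Myb shRNA, and replicate 3 is bluer than replicates 1 and 2 in the day 3 groups.

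With Myb shRNA at day 3, 5 of the 76 genes fell past the threshold (Cox6b2, Ndufaf7, Sdhaf4, Cox4i1 and Ndufa12) and 0 rose, against 11.2% of all genes tested that fell and 11.5% that rose. In this fit the 76 genes held a smaller share of falls and of rises than all genes. For falls that did not hold with the replicate number as a block (14 of 76 fell, against 17.3% of all genes). Nor did it hold without day 3 scrambled replicate 3 (27 fell, against 15.3%) or with arrays numbered 3 left out (31 fell, against 18.4%). Rises stayed few in these fits: 2, 1 and 2 of 76, against 18.9%, 16.9% and 19.9% of all genes. Most differences pointed down all the same: 59 of 76 (77.6%) lay below 0 against 49.9% of all genes, and their median was -0.13 against 0.00. The median stayed below 0 under each scaling tried (-0.11 with cyclic loess, -0.15 with median scaling). For 53 of 76 (69.7%) the 95% interval lay within a 1.5-fold change either way, against 43.3% of all genes. The intervals of these brighter genes were narrower in every comparison of 2 groups (median SE of 0.13 against 0.17). A larger share within 1.5-fold is therefore not by itself a sign of smaller changes. The groups did not overlap for 11 genes that were lower and 2 that were higher, against 18.7% and 17.9% of all genes.

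At day 9 the same comparison gave 2 genes that fell (Cox6b2 and Sdhaf4) and 1 that rose (Ndufa10), against 9.48% and 6.65% of all genes. In this fit the differences were spread around 0, with 41 of 76 (53.9%) below it against 42.2% of all genes. Their median was -0.03 against 0.05 over all genes. This depended on the scaling: 52 of 76 lay below 0 with cyclic loess and 49 with median scaling. The medians over all genes were then -5.1e-05 and -0.008. The 95% interval lay within 1.5-fold for 62 of 76 (81.6%), against 50.3% of all genes. Groups were apart for 10 genes that were lower and 7 that were higher, against 16.9% and 19.8% of all genes.

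**Figure D2:**
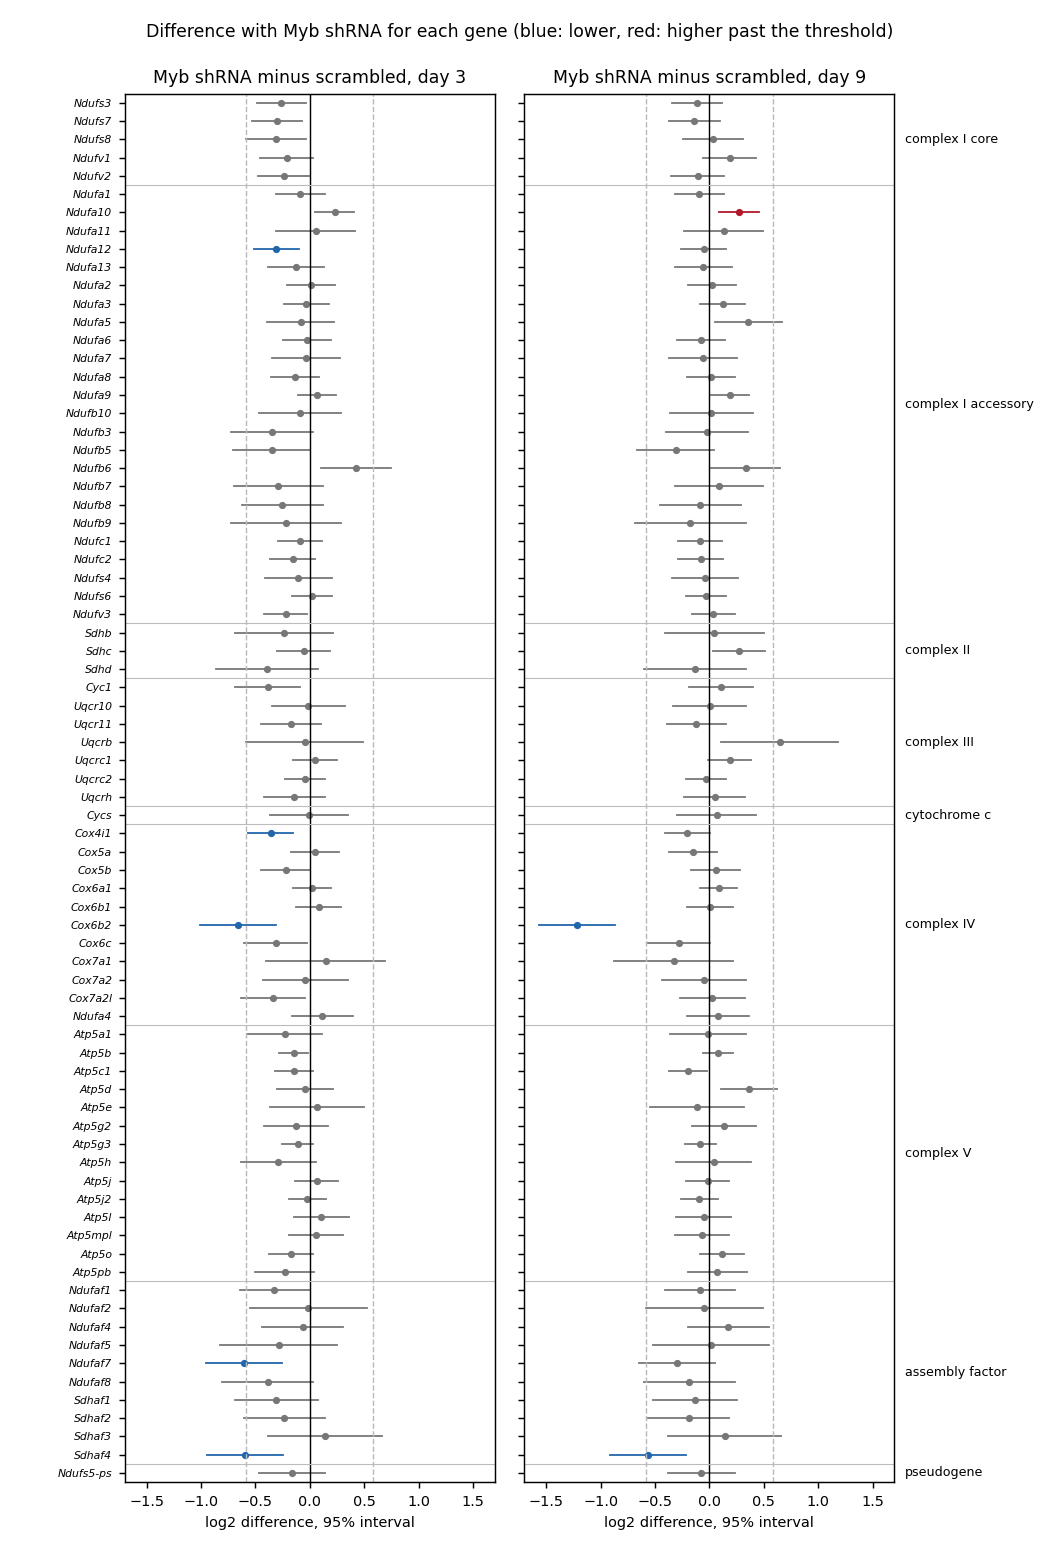
Difference of Myb shRNA minus scrambled for each of the 76 genes at day 3 and day 9 (log2, point with 95% interval, n = 3 per group), by role, with dashed lines at a 1.5-fold change. Genes past the threshold are blue (lower) or red (higher); Cox6b2 lies farthest from 0 on both days (its day 9 point is set against arrays where the probe was not detected), and 53 intervals at day 3 and 62 at day 9 lie between the dashed lines.

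Among the subunits of complex IV, Cox6b2 stood out. It encodes an isoform of subunit 6B known chiefly from testis, and its paralogue Cox6b1 encodes the general form. Cox6b2 read 6.36, 5.93 and 6.28 on the day 3 scrambled arrays and 5.63, 5.34 and 5.61 with Myb shRNA. At day 9 it read 6.45, 6.50 and 6.24 in scrambled cells and 5.15, 5.08 and 5.31 with Myb shRNA. Every Myb shRNA array lay below every scrambled array of its day. Cox6b2 thus fell by 0.66 ± 0.16 at day 3, with an adjusted p of 0.01, and fell at day 9, with an adjusted p of 0.000279. The probe was detected on all 6 scrambled arrays, on 2 of 3 at day 3 with Myb shRNA and on 0 of 3 at day 9, so the day 9 difference is given as a bound, at least 1.79-fold lower (measured means of 6.39 and 5.18). Cox6b2 kept its call at both days in each of the 21 alternatives in which it was tested (adjusted p of 0.00499 to 0.0473 at day 3). From day 3 to day 9 it changed by 0.20 ± 0.16 in scrambled cells (adjusted p = 0.421), while 16 of the 17 ciliated cell markers rose. The summed ciliated markers were lower on every Myb shRNA array than on every scrambled array of the same day, as Cox6b2 was, and so were the summed leukocyte markers, while the summed basal markers were higher. Of the 4 leukocyte markers measured, only Lyz2 was called at day 9, and 2 lay above 0. The part of these cell types in the difference of Cox6b2 was not tested.

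The Cox6b1 probe differed little between groups. It read 13.65, 13.62 and 13.31 in day 3 scrambled cells, 13.65, 13.66 and 13.50 with Myb shRNA, 13.56, 13.46 and 13.61 in day 9 scrambled cells, and 13.51, 13.50 and 13.62 with Myb shRNA. The groups overlapped on both days, and the differences of 0.08 ± 0.10 at day 3 and 0.00 ± 0.10 at day 9 had adjusted p-values of 0.582 and 0.988.

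Cox4i1, the general isoform of subunit 4, read 13.39, 13.37 and 13.01 on the day 3 scrambled arrays against 12.88, 12.96 and 12.86 with Myb shRNA. The groups did not overlap, though scrambled replicate 3 lay near the Myb shRNA arrays. The difference was -0.36 ± 0.10 (adjusted p = 0.017), and the call held in 16 of 22 alternatives. At day 9 Cox4i1 read 13.24, 13.25 and 13.24 in scrambled cells and 13.01, 13.03 and 13.09 with Myb shRNA, which again did not overlap, and the difference of -0.20 ± 0.10 missed the threshold (adjusted p = 0.187).

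The other isoform pairs of complex IV gave no call with Myb shRNA. Cox7a1, an isoform known from heart and skeletal muscle, had differences of 0.15 ± 0.25 at day 3 and -0.33 ± 0.25 at day 9. On 1 of its arrays, day 3 scrambled replicate 3, it read 5.95, against 7.17 and 7.06 on the other scrambled arrays of that day. Of 10 striated muscle markers 8 were detected on no array, and the 1 measured, Acta1, fell between days by 1.63 in scrambled cells and by 2.36 with Myb shRNA. Its counterpart Cox7a2 had differences of -0.04 ± 0.18 and -0.05 ± 0.18. Cox7a2l, which takes part in joining complexes III and IV, had -0.34 ± 0.14 at day 3 (adjusted p = 0.0942) and 0.03 ± 0.14 at day 9. Cox6a1 had 0.02 ± 0.08 and 0.08 ± 0.08, and Ndufa4, now counted as a complex IV subunit, 0.12 ± 0.13 and 0.08 ± 0.13. The partner isoforms Cox4i2, Cox6a2 and Cox8b did not pass the detection filter, and Cox8a and Ndufa4l2 were not analysed here.

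**Figure D3:**
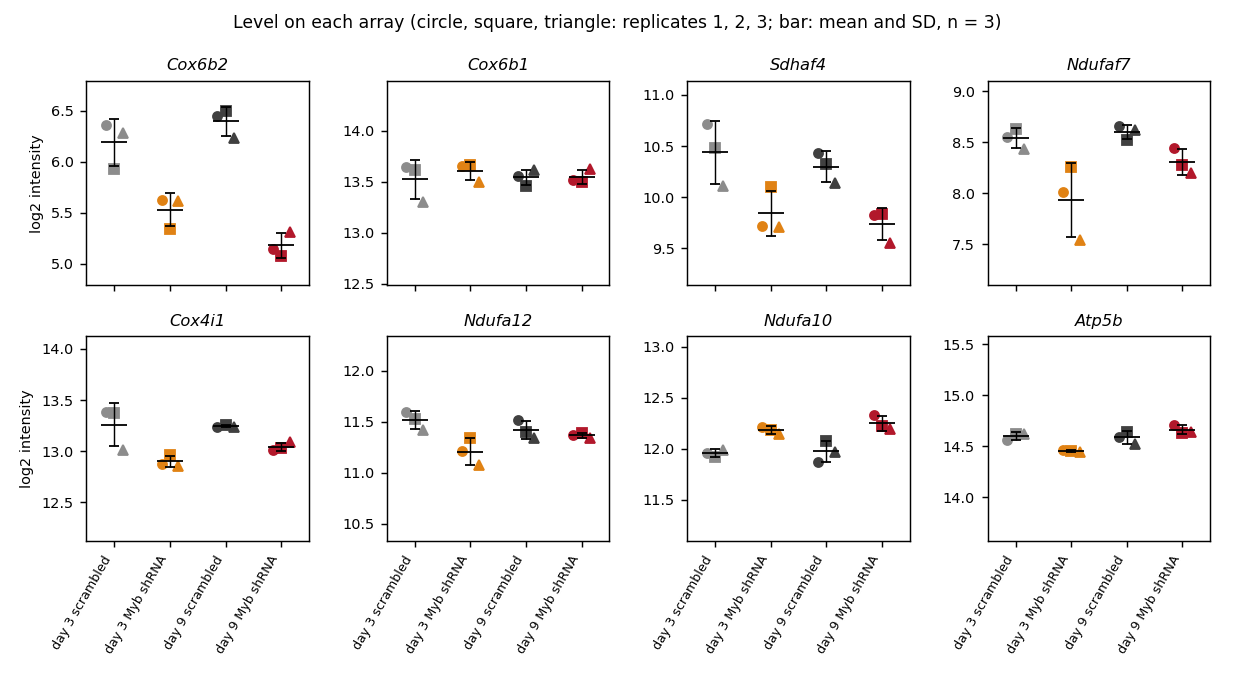
Log2 intensity on each array for the 7 genes that passed the threshold in a comparison and for Cox6b1 (one panel per gene, each axis spanning 2 log2 units; circle, square and triangle are replicates 1, 2 and 3; bars are mean and SD, n = 3). Cox6b2 and Sdhaf4 are lower with Myb shRNA on both days, and Cox6b1 is level.

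Assembly factors held 2 of the 5 genes that fell at day 3. Sdhaf4, which helps to join the flavoprotein Sdha with Sdhb in complex II, read 10.72, 10.48 and 10.11 on the day 3 scrambled arrays and 9.72, 10.10 and 9.71 with Myb shRNA. The groups came close, with Myb shRNA replicate 2 just below scrambled replicate 3, and the difference was -0.60 ± 0.16 (adjusted p = 0.0183). At day 9 it read 10.43, 10.33 and 10.14 in scrambled cells and 9.82, 9.83 and 9.55 with Myb shRNA. Those groups did not overlap either, and the difference was -0.56 ± 0.16 (adjusted p = 0.0308). Each of the 2 calls held in 17 of 22 alternatives, and the losses came mostly from leaving out arrays of the groups compared. The day 3 call was lost without scrambled replicate 1 or 2, without Myb shRNA replicate 1 or 3, and with only its own groups fitted. The day 9 call was lost without scrambled replicate 1 or 2 and without Myb shRNA replicate 1, 2 or 3 (adjusted p in limma up to 0.111).

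Ndufaf7, a methyltransferase that takes part in complex I assembly, read 8.55, 8.63 and 8.43 in day 3 scrambled cells and 8.01, 8.26 and 7.54 with Myb shRNA. All 3 Myb shRNA arrays were lower, with the widest scatter among them, and the difference was -0.60 ± 0.16 (adjusted p = 0.017; held in 19 of 22 alternatives). At day 9 its difference was -0.30 ± 0.16 (adjusted p = 0.265). Of the 10 assembly factors, 9 lay below 0 at day 3, with a median of -0.30, and 7 at day 9, with a median of -0.11. For example Ndufaf8, a partner of Ndufaf5, had -0.39 ± 0.19 at day 3 (adjusted p = 0.173) and Sdhaf3, which protects the iron-sulphur subunit of complex II, had 0.14 ± 0.24 (adjusted p = 0.715).

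In complex I, Ndufa12 and Ndufa10, both accessory subunits, gave the calls. Ndufa12 read 11.59, 11.53 and 11.42 in day 3 scrambled cells and 11.21, 11.33 and 11.07 with Myb shRNA. The groups did not overlap, the difference was -0.31 ± 0.10 (adjusted p = 0.0348) and the call held in 14 of 22 alternatives. At day 9 its difference was -0.05 ± 0.10 (adjusted p = 0.776).

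Ndufa10 ran the other way. It read 11.96, 11.91 and 11.99 in day 3 scrambled cells and 12.21, 12.19 and 12.14 with Myb shRNA, a difference of 0.23 ± 0.08 that missed the threshold (adjusted p = 0.0672). At day 9 it read 11.87, 12.08 and 11.97 against 12.33, 12.22 and 12.19. On both days every Myb shRNA array was higher than every scrambled one, and at day 9 the difference was 0.27 ± 0.08 (adjusted p = 0.0406). That call held in 10 of 22 alternatives. Ndufb6, an accessory subunit of the membrane arm, had differences of 0.42 ± 0.15 and 0.33 ± 0.15 on the 2 days, with adjusted p-values of 0.056 and 0.161.

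The core subunits of complex I that were measured all pointed down at day 3 without passing the threshold. Their differences were -0.31 ± 0.13 for Ndufs8, -0.30 ± 0.11 for Ndufs7, -0.26 ± 0.11 for Ndufs3, -0.24 ± 0.11 for Ndufv2 and -0.21 ± 0.11 for Ndufv1 (adjusted p of 0.0583 to 0.197). At day 9 they lay between -0.14 and 0.19, with 3 of 5 below 0. The gene for core subunit Ndufs1 did not pass detection.

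Complexes II, III and V and cytochrome c gave 0 calls with Myb shRNA at either day in limma, with 2 unadjusted p-values under 0.05 at day 3 (Cyc1 and Atp5b) and 4 at day 9 (Sdhc, Uqcrb, Atp5c1 and Atp5d). Over all 9381 genes, 3387 had such a p-value at day 3 and 2615 at day 9. The medians at day 3 and day 9 were -0.23 and 0.05 for the 3 genes of complex II, -0.05 and 0.05 for the 7 of complex III, and -0.12 and -0.01 for the 14 of complex V. Cycs, the electron carrier cytochrome c, had differences of -0.01 ± 0.17 and 0.07 ± 0.17.

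Uqcrb, a small subunit of complex III that lies near the quinone site, was a dim probe. It read 6.29, 6.19 and 5.58 in day 3 scrambled cells, 5.91, 5.65 and 6.36 with Myb shRNA, 5.15, 5.30 and 5.57 in day 9 scrambled cells and 5.80, 5.73 and 6.43 with Myb shRNA. The day 9 groups did not overlap, but the probe was detected on 1 of 3 day 9 scrambled arrays and the difference of 0.65 ± 0.25 missed the threshold (adjusted p = 0.101).

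For 23 of the 76 genes a further probe was measured, 27 probes in all. A further probe passed the threshold for 4 genes whose chosen probe did not. These were Ndufv3 with Myb shRNA at day 3 (-0.41, adjusted p = 0.0254) and, from day 3 to day 9 in scrambled cells, Cox7a2l (-0.41, adjusted p = 0.0362), Ndufa3 (-0.71, adjusted p = 0.04) and Ndufaf4 (-0.66, adjusted p = 0.0417).

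From day 3 to day 9 in scrambled cells, 0 of the 76 genes passed the threshold in limma, against 9.55% of all genes that rose and 7.52% that fell. An unadjusted p under 0.05 was found for 7 of the 76, against 2929 of all 9381 genes. Differences lay below 0 for 50 of 76 (65.8%) against 58.2% of all genes. The median was -0.07, as over all genes (-0.07), and turned to 0.00 with cyclic loess, where 37 of 76 lay below 0. With median scaling 58 of 76 lay below 0, while the median over all genes was 0.009. The 95% interval lay within 1.5-fold for 63 of 76 (82.9%) against 46.8% of all genes. Groups were apart for 2 genes that were higher and 2 that were lower, against 14% and 18.3% of all genes. The largest difference was that of Uqcrb, -0.68 ± 0.25 (adjusted p = 0.0796), and the next that of Cox7a1, 0.60 ± 0.25 (adjusted p = 0.122), whose day 3 scrambled mean includes the low replicate 3. The ciliated cell markers rose with a median of 1.38 over the same days.

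Under Myb shRNA, 1 gene rose from day 3 to day 9 and 0 fell, against 9.26% and 7.43% of all genes. The gene was Atp5b, which read 14.46, 14.45 and 14.44 at day 3 and 14.71, 14.63 and 14.64 at day 9. The groups did not overlap, and the difference of 0.21 ± 0.06 (adjusted p = 0.0352) came from a small spread between replicates; the call held in 11 of 22 alternatives. Differences lay below 0 for 31 of 76 (40.8%) against 53.4% of all genes. The median over the 76 was 0.04 against -0.03 over all genes, and it turned to -0.01 with median scaling. The 95% interval lay within 1.5-fold for 66 of 76 (86.8%) against 50% of all genes. Groups were apart for 13 genes that were higher and 5 that were lower, against 17% and 17.7% of all genes. The 5 core subunits of complex I had differences between 0.04 and 0.30, of which 3 had groups that did not overlap.

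The interaction asked whether the difference with Myb shRNA changed between the days. Of the 76 genes 0 passed it in limma, against 1.65% of all genes (0.746% in the positive and 0.906% in the negative direction). An unadjusted p under 0.05 was found for 7 of the 76, against 1330 of all 9381 genes. Of the 76, 18 (23.7%) lay below 0 against 46.1% of all genes, with a median of 0.10 against 0.03 over all genes (0.02 with cyclic loess). The calls for Ndufaf7, Cox4i1 and Ndufa12 at day 3 and not at day 9 are therefore not shown to differ between days: their interaction terms were 0.31 ± 0.23, 0.15 ± 0.14 and 0.25 ± 0.14 (adjusted p of 0.575, 0.643 and 0.422). For Cox6b2 no interaction value is given, since its probe was not above background with Myb shRNA at day 9.

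The replicate number went with a shift in most of these genes. Of the 76, 66 (86.8%) had their lowest level in replicate 3 among the day 3 scrambled arrays, against 40.1% of all genes. The count was 60 (78.9%) in day 3 Myb shRNA against 43.1% of all genes. At day 9 it was 40 (52.6%) in scrambled cells and 46 (60.5%) with Myb shRNA, against 41.0% and 41.7% of all genes. In 26 genes (34.2%, against 13.8% of all) replicate 3 was lowest in every group, and 7 of the 10 assembly factors were among them. The 26 also held Sdhb, the iron-sulphur subunit of complex II, as well as Cyc1 and Cycs.

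The median deviation from the mean over 12 arrays shows the size of this shift. For subunits with cytochrome c it was 0.20, 0.10 and -0.15 on the day 3 scrambled arrays 1, 2 and 3, and -0.02, 0.00 and -0.15 with Myb shRNA. For assembly factors it was 0.48, 0.27 and -0.20 on the day 3 scrambled arrays, and 0.02, 0.05 and -0.22 with Myb shRNA. At day 9 the assembly factors stood at 0.22, 0.09 and -0.16 in scrambled cells and at 0.05, 0.00 and -0.28 with Myb shRNA. Every array numbered 3 was the lowest of its group in both lists, while the median over all genes stayed between -0.07 and 0.04 on every array. What the number stands for is not given in the labels, and its cause was not tested.

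**Figure D4:**
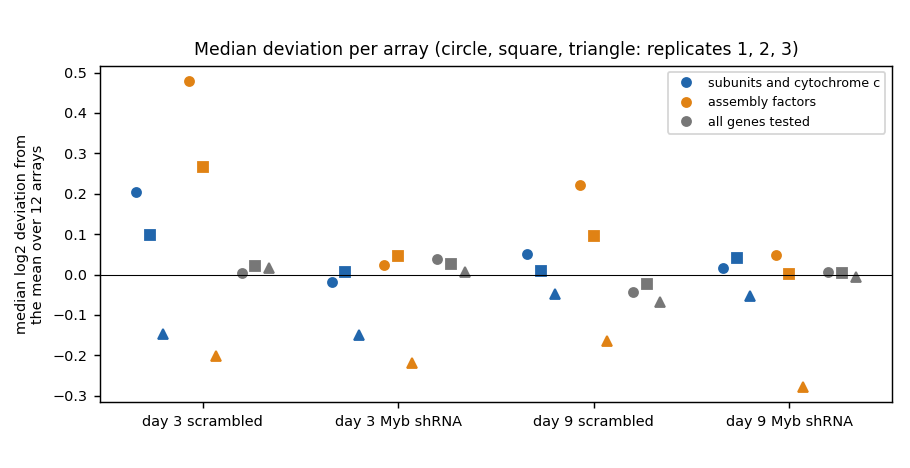
Median log2 deviation from the mean over 12 arrays on each array, for 65 subunits with cytochrome c (blue), 10 assembly factors (orange) and all 9381 genes tested (grey); circle, square and triangle are replicates 1, 2 and 3. The triangles are the lowest of their group in the blue and the orange points, and the scrambled day 3 circle and square are the highest.

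In their deviations from the group means, same-numbered arrays correlated above 0.1 in each comparison of 2 groups. Arrays numbered 1 and 2 did so across numbers as well (0.131 to 0.477), so this does not show that these numbers are pairs. A fit with the replicate number as a block was set beside the fit without it. The number 3 arrays stood apart, while numbers 1 and 2 were not always told from each other. Day 3 scrambled replicate 1 correlated at 0.477 with Myb shRNA replicate 2 and at 0.15 with its own number, and day 3 Myb shRNA replicate 2 at 0.415 with day 9 Myb shRNA replicate 1 and at 0.245 with its own. At day 3 the block gave 14 genes that fell and 2 that rose with Myb shRNA, against 17.3% and 18.9% of all genes. The 14 comprised 4 core subunits of complex I (Ndufs3, Ndufs7, Ndufs8 and Ndufv2), Ndufa12, Cyc1, 4 of complex IV (Cox4i1, Cox6b2, Cox6c and Cox7a2l) and 4 assembly factors (Ndufaf7, Ndufaf8, Sdhaf1 and Sdhaf4). The 2 that rose were Ndufb6 (0.42 ± 0.12, adjusted p = 0.0151) and Ndufa10 (0.23 ± 0.08, adjusted p = 0.0439). Cyc1, the haem-bearing cytochrome c1 of complex III, read 11.15, 11.16 and 10.81 in day 3 scrambled cells and 10.70, 10.83 and 10.42 with Myb shRNA. Each Myb shRNA array was lower than the scrambled array of its number, though the groups overlapped, and the blocked difference was -0.39 ± 0.08 (adjusted p = 0.00224, against 0.0579 without the block).

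At day 9 the block gave 2 genes that fell (Cox6b2 and Sdhaf4) and 4 that rose, against 12.6% and 12.2% of all genes. Those that rose were Ndufa10, Ndufa5 (0.36 ± 0.09, adjusted p = 0.00696), Atp5d (0.36 ± 0.10, adjusted p = 0.0111) and Sdhc (0.27 ± 0.08, adjusted p = 0.0269). Atp5d, the delta subunit in the rotor of complex V, read 10.91, 10.86 and 10.87 in day 9 scrambled cells and 11.31, 11.25 and 11.17 with Myb shRNA, with no overlap. Between days the block gave 7 genes that fell in scrambled cells (Atp5o, Cox7a2l, Cyc1, Ndufa5, Ndufaf4, Ndufb7 and Uqcrb) and 0 that rose, against 15.7% and 14.3% of all genes. Under Myb shRNA it gave 5 that rose (Atp5b, Ndufc2, Ndufs7, Ndufv1 and Sdhc) and 0 that fell, against 13.3% and 11.9%. The interaction gave 2 positive genes with the block (Cyc1 and Ndufa5) and 0 negative, against 3.51% and 4.11% of all genes. For it, not all same-numbered arrays correlated above 0.1.

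A single array decided much of the day 3 count. Without day 3 scrambled replicate 3, 27 of the 76 genes fell with Myb shRNA and 1 rose, against 15.3% and 16.9% of all genes, 71 of 76 differences lay below 0 and their median was -0.25. The 27 held 4 of the 5 core subunits of complex I, 4 of 7 genes of complex III and 5 of 10 assembly factors. Without that array, 14 genes fell from day 3 to day 9 in scrambled cells, against 15% of all genes, and 3 genes rose and 3 fell with Myb shRNA at day 9, against 9.08% and 11.2%. Leaving out day 3 scrambled replicate 1 or 2 or day 3 Myb shRNA replicate 1 or 3 left 1 or 2 genes that fell. Cox6b2 was among the calls each time.

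Related mitochondrial genes from lists by function were set beside these. Of 27 further assembly factors measured, 3 fell and 0 rose with Myb shRNA at day 3, against 11.2% and 11.5% of all genes. At day 9, 2 fell, against 9.48% of all genes. Ndufaf3, a complex I assembly factor that the platform lists under an older symbol, fell by 0.94 ± 0.18 at day 3 (adjusted p = 0.00209) and by 0.66 ± 0.18 at day 9 (adjusted p = 0.0212). Coa6, which delivers copper to complex IV, fell by 0.88 ± 0.18 at day 3 (adjusted p = 0.00387) and by 0.62 ± 0.18 at day 9 (adjusted p = 0.0345). The third was Coa7 at day 3 (-0.52 ± 0.18, adjusted p = 0.0469; held in 9 of 22 alternatives). Between days in scrambled cells Bcs1l, which inserts the Rieske protein, fell by 0.72 ± 0.16 and Cox10, a haem A synthesis enzyme, rose by 0.74 ± 0.15.

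Of 15 biogenesis regulators, Polg2, the accessory subunit of the mitochondrial DNA polymerase, fell by 1.03 ± 0.17 at day 3 with Myb shRNA (adjusted p = 0.00061). The coactivator gene Pprc1 rose by 0.66 ± 0.14 at day 3 and by 0.49 ± 0.14 at day 9 (adjusted p of 0.00356 and 0.0255), the second held in 13 of 22 alternatives, and no other regulator passed in these comparisons. From day 3 to day 9 Ppargc1a, a coactivator of mitochondrial biogenesis, rose by 0.83 ± 0.17 in scrambled cells and by 0.90 ± 0.17 with Myb shRNA (adjusted p of 0.00441 and 0.0021).

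Counts in the supply pathways at day 3 stand beside 11.2% of all genes that fell and 11.5% that rose with Myb shRNA. At day 9 these shares were 9.48% and 6.65%. Of 14 citric acid cycle genes 1 fell at day 3 (Pdhb, -0.67 ± 0.15) and 2 rose at day 9 (Dlst and Pdha1, each by 0.39 to 0.40, held in 12 and 17 of 22 alternatives). Of 13 fatty acid oxidation genes 4 fell at day 3 (Echs1, Acadl, Acadm and Hadhb, by -0.51, -0.57, -0.31 and -0.46) and 0 passed at day 9. The calls of Hadhb and Acadm held in 8 and 16 of 22 alternatives, and Echs1 had -0.15 (adjusted p = 0.431) as the mean of its probes. Of 14 glycolysis genes 3 fell at day 3 and 1 at day 9, with Aldoc, the aldolase isoform known from brain, in both (-1.89 ± 0.20 and -1.15 ± 0.20). Of 24 import and inner membrane genes 3 fell and 1 rose at day 3, and 1 fell at day 9. Chchd6, a cristae protein, fell by 1.23 ± 0.15 at day 3 and by 1.09 ± 0.15 at day 9, and rose between days by 1.07 ± 0.15 in scrambled cells and 1.20 ± 0.15 with Myb shRNA. The ciliated cell markers moved in the same directions in these 4 comparisons, and their part was not tested. Of 6 antioxidant and uncoupling genes Sod2, the mitochondrial superoxide dismutase, fell by 0.44 ± 0.08 at day 3 (adjusted p = 0.00207) and 0 passed at day 9.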

How the data were processed

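Total RNA of 12 cultures was measured on Illumina bead arrays. The deposited signals are intensities per probe with a detection p-value each, background-subtracted as their negative values show (28.8 to 34.4% per array), and the authors also deposited a processed log2 table, whose offset and normalisation are not given in the sources used here. BeadStudio 3.0 and limma are named per the submitters' processing notes.

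Here the intensities were background-corrected with an offset of 16 and quantile-normalised by neqc in limma 3.58.1 (R 4.3.3), with negative controls inferred from the detection p-values. Of 45281 probes, the 15526 that 3 or more arrays detected (p-value under 0.01) stayed in. Of these, 1733 had no single gene name in the platform annotation and were left out. The probe with the highest mean stood for a gene, which left 9381 genes. Linear models with an intensity trend (8 residual degrees of freedom) were fitted over all 4 groups for 5 contrasts, with Benjamini-Hochberg adjustment over all genes and a threshold of 0.05. The median SE was 0.17 (0.24 for the interaction), and the scripts were tested on simulated data.

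The genes named are the members that passed the threshold, their isoforms, those nearest to it and the called genes of the lists. The members and lists were chosen with earlier results of these data known. The labels call the arrays biological replicates and do not say what a replicate number shares. Same-numbered arrays deviated together from their group means, with every correlation above 0.1 in each of the 4 comparisons of 2 groups (lowest 0.107). A fit with the replicate number as a block was therefore set beside the main fit there. The main fit leaves the number out, and the p-values given are from it, unpaired, unless another fit is named. Numbers 1 and 2 also correlated above 0.1 across each other in all 4 (0.131 to 0.477), so that criterion set only the arrays numbered 3 apart. For the interaction 16 of 18 same-numbered correlations passed, so the criterion was not met there. Alternatives covered the processed table, scaling, detection filters, probe choice, array weights, the replicate block, the samples fitted and each array left out.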

Additional observations from a re-analysis of the deposited data

How the results depend on the processing

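Counts of called genes among the 76 depended on the handling of replicates, while no called difference reversed. Over single named genes, 200 values lost the call, 52 gained one, 37 moved by more than the spread between replicates, and 2610 kept their call or moved by less. Some uncalled differences changed sign: without day 3 scrambled replicate 3, those at day 3 went from 0.15 to -0.25 for Cox7a1, from 0.12 to -0.06 for Ndufa4 and from 0.08 to -0.03 for Cox6b1. With the replicate block, 2 genes rose and 14 fell with Myb shRNA at day 3, 4 rose at day 9, 7 fell between days in scrambled cells, 5 rose under Myb shRNA and 2 were positive in the interaction. With arrays numbered 3 left out, an alternative chosen after seeing the data, the counts were 2 higher and 31 lower at day 3, 9 higher and 4 lower at day 9, 22 lower between days in scrambled cells, 3 higher and 1 lower under Myb shRNA, and 13 positive in the interaction. Array weights, estimated gene by gene because the default did not converge, gave 2 higher and 35 lower at day 3 and 7 and 4 at day 9. Between days they gave 17 lower in scrambled cells and 10 and 2 under Myb shRNA, and 13 and 1 in the interaction. Of all genes, 47.3%, 27.9%, 38%, 36.8% and 19.5% were called in these comparisons, in that order. Cyclic loess, median scaling and no detection filter each left 0 higher at day 9 and 0 higher between days under Myb shRNA. Detection on all 12 arrays left 1 lower at day 9, where Cox6b2 was not tested. The mean of all kept probes gave 2 higher at day 9 and 1 lower in scrambled cells, and fitting only the groups compared gave 1 lower at day 3 and 2 higher at day 9. Leaving out each array in turn gave 1 to 27 lower and 0 to 1 higher at day 3, with medians of -0.25 to -0.052. At day 9 it gave 1 to 3 lower and 0 to 3 higher, with medians of -0.05 to 0.02. Between days it gave 0 to 14 lower and 0 higher in scrambled cells (medians of -0.16 to 0.00), 0 to 5 higher and 0 to 1 lower under Myb shRNA (medians of 0.00 to 0.08), and 0 to 1 higher and 0 lower in the interaction (medians of 0.017 to 0.23). Of all genes, the share called either way in these leave-one-out fits was 15.4 to 32.2% at day 3 and 10.1 to 20.3% at day 9. Between days it was 8.63 to 29.3% in scrambled cells and 11.1 to 21.1% under Myb shRNA, and 0.554 to 3.51% in the interaction. The cause of these moves was not tested. The authors' processed table gave the same called members. Dim probes (Sdhd, Cox6b2 and Uqcrb) limit what can be read from their differences.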

Other observations

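The platform also holds a probe for mt-Atp6, a complex V subunit encoded in the mitochondrial genome, which the symbols above do not cover. It was detected on all 12 arrays. It read 9.42, 9.15 and 9.47 in day 3 scrambled cells and 9.20, 8.91 and 9.87 with Myb shRNA. At day 9 it read 9.81, 9.77 and 9.95 in scrambled cells and 9.54, 9.56 and 9.79 with Myb shRNA. Replicate 3 was the highest of its group in all 4 groups. Among the 76 nuclear genes described above, it was the lowest in all 4 groups for 26 (34.2%).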
